A study of Macaca mulatta with 449 samples.

Results

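The cadherins and non-clustered protocadherins are cell surface adhesion proteins, and 31 of their genes were followed by symbol through the gene count table: 19 cadherins, CDHR1 and 11 protocadherins that lie outside the clustered protocadherin loci. Of the 31, 30 had a row among the 30807 genes of the table; PCDH20 had none under its symbol and was not analysed here. The study profiled total RNA, depleted of ribosomal RNA, from bulk tissue dissected from the brains of 8 healthy rhesus macaques (Macaca mulatta), and the 51 sub-regions kept here give 1 library from each animal. The sub-regions were summed within each animal into 16 region groups: cortex (31 sub-regions), PA (entorhinal and perirhinal cortex), HIP (dentate gyrus DG, CA1 and CA3), AMY (amygdala), STR (accumbens nucleus ACb, caudate nucleus CN and putamen PUT), GP (globus pallidus), OB (olfactory bulb), CC (corpus callosum), THA (thalamus), HTHA (hypothalamus), SN (substantia nigra), VTA (ventral tegmental area), PON (pons), MO (medulla oblongata), CB (cerebellar cortex CBC and cerebellum vermis CBV) and PIT (the pituitary). The animals were untreated and carried no engineered allele; 4 were young (Rhesus 4, 7, 8 and 10, aged 3.2 to 5 years) and 4 mid-aged (Rhesus 2, 3, 6 and 11, aged 9.8 to 10 years), and each age stage held 2 males and 2 females. Each region group or sub-region therefore had 1 value from each of the same 8 animals, and an SD below is over those 8 animals. Samples labelled midbrain were set aside by the study and were not used here.

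Classical cadherins reach across the cell junction with repeated extracellular domains that need calcium, bind mainly to cadherins of the same or a closely related kind on the neighbouring cell, and hold the actin skeleton through catenins. Type I members such as N-cadherin (CDH2) are broad in the brain, whereas type II members are known for patterns that differ from nucleus to nucleus and from cortical area to cortical area. The delta protocadherins, divided into delta-1 and delta-2 by the conserved stretches of their cytoplasmic tails, are each encoded by a gene of their own and do not bind beta-catenin in the classical way. Other members depart from this plan: CDH13 is held by a lipid anchor and lacks a cytoplasmic tail, CDH23 and PCDH15 are the tip link proteins of inner ear hair cells, and CDHR1 is best known from photoreceptors.

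Depth per library ran from 7784678 to 31083490 counts with a median of 10698602. The 30 genes together took between 0.0330% and 0.202% of a library's counts. Values are CPM, counts scaled to a common library size with TMM factors; gene lengths were not available, so levels were compared between tissues and not between genes. PCDH7, a delta-1 protocadherin, had at least 1 read in 166 libraries and never more than 7, which fell below the expression filter, so 29 members were tested between region groups. Because the tissue was bulk, fewer cells of a type and less RNA per cell cannot be told apart. The tissue labels were compared with marker lists. Markers of oligodendrocytes (6 of 8 listed genes in the table) summed highest in CC, at 91802 to 121778 CPM, and markers of the anterior pituitary (4 of 6) highest in PIT. The hypothalamic, striatal, thalamic, cerebellar, dopamine neuron and olfactory bulb lists were likewise highest in the tissues they name. Of the olfactory bulb list only SP8 had a row. AVP, ADORA2A and PCP2 were missing from the hypothalamic, striatal and cerebellar lists. The hypothalamus library of Rhesus 6 stood apart: its sum of 4 cortical excitatory neuron markers was 599.5 CPM against 10.2 to 15.9 among the other 7 animals. The same list reached 297 CPM in the accumbens library of Rhesus 10 and 149.9 in the putamen library of Rhesus 3.

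Between region groups, the members spread widely. Each group was compared with the mean of the other 15 on the log2 scale (edgeR quasi-likelihood test with the animal as a block, called at a Benjamini-Hochberg adjusted p under 0.05 and a fold over 2), and 27 of the 29 members were called in at least 1 group. In at least 1 group 27 were higher and 26 lower, where 9470 and 8315 of all 16829 genes were. Of the 464 member and group pairs, 104 (22.4%) were higher and 92 (19.8%) lower, beside 9.27% and 7.94% of the pairs of all 16829 genes tested. The distance between the highest and the lowest fitted group had a median of 4.66 log2 units over the members and 2.04 over all genes. N-cadherin (CDH2) and the endothelial cadherin CDH5 were the 2 members with no call in any group.

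The cortex, PA, HIP, AMY, STR, HTHA and OB held the most members on the higher side. In the cortex 9 of the 29 members were higher and 4 lower, where 9.50% and 8.23% of all genes were. In PA 11 were higher and 4 lower (all genes, 9.89% and 5.03%), in HIP 8 and 4 (8.82% and 6.06%), in AMY 11 and 2 (9.34% and 6.27%), and in STR 8 and 3 (8.64% and 5.33%). In HTHA 10 members were higher and none lower, beside 6.61% and 0.588% of all genes, and in OB 9 were higher and 1 lower, beside 10.2% and 5.59%.

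Lower calls gathered in the cerebellum, the pituitary and the corpus callosum. In CB 5 members were higher and 17 lower, where 11.5% and 17.5% of all genes were called. In PIT 3 were higher and 16 lower (17.8% and 20.4%), and in CC 4 were higher and 12 lower (13.6% and 18%). PON had 5 higher and 9 lower (7.18% and 8.25%), GP 3 and 7 (9.07% and 9.30%), THA 4 and 5 (6.45% and 5.54%), SN 4 and 5 (5.78% and 4.83%), and MO 7 and 3 (8.01% and 2.75%). VTA had 3 higher and no lower member, beside 5.79% and 3.43% of all genes, so its lower count was at or under the background.

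**Figure D1:**
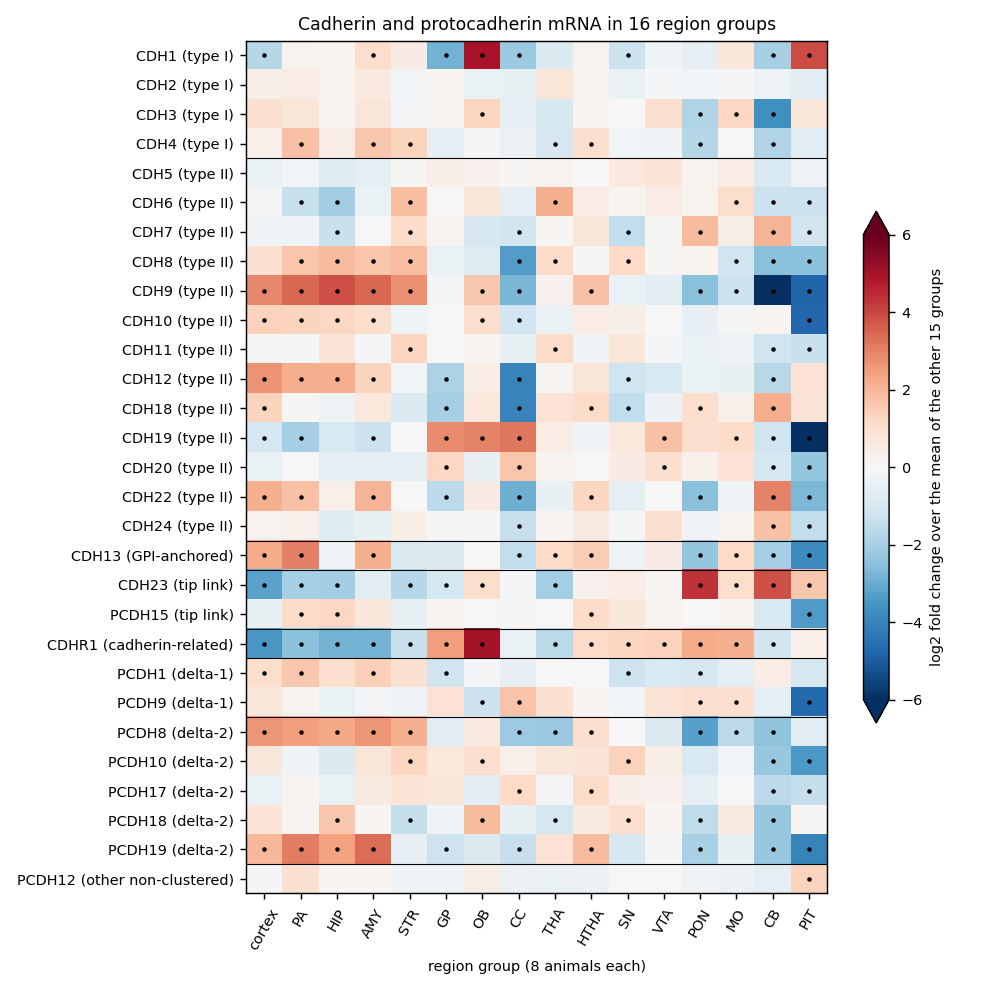
Heat map of the log2 fold change of each of 29 members (rows, with the family in brackets) in each of 16 region groups (columns, 8 animals each) over the mean of the other 15 groups; a black dot marks a pair called at an adjusted p under 0.05 and a fold over 2. CDHR1 in OB (5.01 ± 0.14, SE) and CDH1 in OB (4.95 ± 0.15) were the strongest higher cells and CDH9 in CB (-7.53 ± 0.42) the strongest lower cell, which like CDH19 in PIT lies beyond the end of the colour scale.

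The type I cadherin CDH1 (E-cadherin, the adhesion protein of epithelia) was high in 2 tissues. In OB it was at 36.4 ± 15.4 CPM (lowest 10.6, median 40.1, highest 55.6) and in PIT at 17.5 ± 6.41 CPM (lowest 9.59, median 18.6, highest 26.5), whereas no other group had a mean above 2.99 ± 1.75 CPM, its level in AMY. No OB or PIT animal lay below 9.59 CPM, and no animal of another group passed 7.17. The fitted difference from the other groups was 4.95 ± 0.15 log2 units in OB (SE, edgeR adjusted p = 9.91e-56) and 3.93 ± 0.17 in PIT (2.14e-43). CDH1 was also called higher in AMY. It was called lower in CB and CC, in the cortex, at 0.499 ± 0.210 CPM (-1.70 ± 0.25 log2 units), in GP (-2.84 ± 0.42) and in SN (-1.29 ± 0.34); in GP the 8 libraries held 0 to 8 reads each, so that fold rests on few counts.

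CDH2 (N-cadherin) was the type I member with no call. Its group means ran from 80.2 ± 14.2 CPM in PIT to 210.2 ± 34.4 in THA, and every animal had at least 58.7 CPM in every group. CDH4 (R-cadherin) was called higher in PA (20.03 ± 5.12 CPM), AMY (18.6 ± 5.70), STR (16.01 ± 3.58) and HTHA (12.3 ± 3.41), and lower in THA, PON and CB, the last at 1.97 ± 0.264 CPM (lowest 1.504, median 1.93, highest 2.37). CDH3 (P-cadherin) was called lower in CB, where it was at 0.318 ± 0.246 CPM (lowest 0.0778, median 0.231, highest 0.775) and the fitted difference was -3.70 ± 0.31 log2 units. It was lower in PON and higher in OB as well, and its highest group mean, in MO, was set by a single animal. Rhesus 4 had 34.4 CPM and the other 7 animals between 1.47 and 9.40; without Rhesus 4 the fitted difference in MO dropped from 1.26 ± 0.19 log2 units to 0.64 and was no longer called.

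CDH5 (VE-cadherin, which joins endothelial cells) moved little between groups, from 7.28 ± 1.60 CPM in CB to 21.4 ± 4.10 in VTA. The sum of 5 endothelial markers of the 6 listed was also higher in VTA (123 to 215 CPM) than in CBC (44.3 to 90.5); the part of this list in the CDH5 levels was not tested.

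CDH19 and CDH20 had their highest group means in CC, the white matter sample. CDH19 is known from glia and Schwann cell precursors. It was at 159.7 ± 53.8 CPM (lowest 73.4, median 162, highest 237) in CC, 135 ± 45.9 CPM (lowest 70.98, median 134, highest 212) in GP and 134 ± 60.7 CPM (lowest 64.05, median 118, highest 222) in OB. In these 3 groups no animal was below 64.05 CPM, while in the cortex the 8 animals ran from 7.94 to 14.98. The fitted differences were 3.16 ± 0.12 log2 units in CC, 2.98 ± 0.13 in OB, 2.83 ± 0.13 in GP and 1.75 ± 0.14 in VTA. It was also called higher in MO, and lower in PA (-1.98 ± 0.21), AMY (-1.28 ± 0.20), the cortex and CB. In PIT it was nearly missing, with 0 to 5 reads per library and a mean of 0.183 ± 0.144 CPM, so the fitted -7.20 ± 0.36 log2 units rest on few counts.

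CDH20, a type II cadherin also known from neural crest and brain, was called higher in CC, GP and VTA and lower in CB and PIT, as CDH19 was, but not in OB, MO, the cortex, PA or AMY. It stood at 142 ± 15.3 CPM (lowest 115, median 145, highest 158) in CC, 113 ± 13.5 CPM (lowest 88.2, median 115, highest 126) in GP and 98 ± 8.67 CPM (lowest 85.5, median 97.4, highest 112) in VTA, and at 38.1 ± 4.37 CPM in OB, beside 41.3 ± 3.11 in the cortex. Its fitted differences were 1.64 ± 0.07, 1.23 ± 0.08 and 1.01 ± 0.08 log2 units; the last lies at the 2-fold limit and was lost without Rhesus 2, 3 or 8 (0.97, 0.99 and 0.99) and without the hypothalamus library of Rhesus 6 (0.995). The oligodendrocyte markers summed to 91802 to 121778 CPM in CC, 48520.4 to 104678 in GP, 41603 to 65019.8 in VTA, 3531 to 5939.8 in OB and 16.4 to 50.3 in PIT. Their sum was thus low in OB, where CDH19 was high and CDH20 was not. In OB 4 Schwann cell markers summed to 90.6 to 172 CPM, beside 449.8 to 724 in CC. The part of these markers in the levels of CDH19 and CDH20 was not tested.

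CDH9, a type II cadherin known in mice from synapses of the hippocampal mossy fibres, was called higher in more forebrain groups than any other member, 7. It was highest in HIP, at 83.98 ± 5.49 CPM (lowest 72.5, median 84.3, highest 89.6), followed by AMY (64.4 ± 10.3), PA (63.8 ± 7.48), the cortex (46.6 ± 2.54) and STR (41.5 ± 6.32). In these 5 groups no animal fell below 33.3 CPM, and outside them only OB and HTHA libraries passed 13.7. The fitted differences were 3.85 ± 0.13 log2 units in HIP (edgeR adjusted p = 1.02e-51), 3.47 ± 0.14 in PA, 3.45 ± 0.14 in AMY, 2.89 ± 0.14 in the cortex and 2.73 ± 0.14 in STR. In HTHA the difference was 1.77 ± 0.16, and the highest of the 8 hypothalamus values, 35.7 CPM, came from Rhesus 6. CDH9 was also called higher in OB and lower in CC, and lower in MO (-1.28 ± 0.24) and PON (-2.52 ± 0.28). In CB it had 0 to 4 reads per animal although 2 libraries were summed, and in PIT 1 to 10; its fitted -7.53 ± 0.42 and -4.79 ± 0.36 log2 units there rest on few counts.

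CDH8 shared the hippocampal, amygdalar and striatal side of that pattern. It was at 217 ± 35.5 CPM (lowest 164, median 214, highest 262) in HIP and 212 ± 24.7 CPM (lowest 180.1, median 208, highest 259.9) in STR, and was called higher in STR (1.83 ± 0.13 log2 units), THA (1.16 ± 0.15) and SN (1.19 ± 0.15) as well as in PA, HIP and AMY. In the cortex it was at 118 ± 13.1 CPM and was not called. It was lowest in CC, at 6.62 ± 3.56 CPM (lowest 2.11, median 7.19, highest 11.6), a difference of -3.35 ± 0.23 log2 units, and was also called lower in CB (-2.52 ± 0.21), MO (-1.21 ± 0.19) and PIT.

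CDH10 and CDH12 had their highest group means in the cortex. CDH10 was at 76.01 ± 8.404 CPM (lowest 63.9, median 75.4, highest 87.1) in the cortex and called higher there, in PA, HIP, AMY and OB. Its lowest group was PIT, at 1.29 ± 0.443 CPM (lowest 0.487, median 1.44, highest 1.73), where the 8 animals lay below every animal of every other group and the difference was -4.73 ± 0.15 log2 units. CDH12 was at 37.3 ± 5.55 CPM (lowest 28.1, median 37.8, highest 43.5) in the cortex (2.72 ± 0.15 log2 units) and was called higher in PA, HIP and AMY too. It was lower in SN and CB, in GP (-1.91 ± 0.28) and in CC (-4.03 ± 0.36), where the libraries held 1 to 8 reads each.

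CDH18, CDH22, CDH24 and CDH7 were the type II members called higher in the cerebellum. CDH18 was at 109 ± 18.2 CPM (lowest 71.2, median 113, highest 129) in CB and 66.7 ± 11.6 CPM in the cortex, and lowest in CC at 1.84 ± 1.10 CPM (lowest 0.332, median 1.56, highest 3.35). The fitted differences were 2.18 ± 0.13 log2 units in CB, -4.02 ± 0.27 in CC, -1.97 ± 0.21 in GP and -1.49 ± 0.20 in SN, and it was called higher in the cortex, HTHA and PON too. CDH22, first described as a cadherin of the pituitary gland and the brain, was at 86.98 ± 22.8 CPM (lowest 67.01, median 79.7, highest 136) in CB (2.97 ± 0.11 log2 units) and 51.8 ± 6.88 CPM in the cortex. In PIT itself CDH22 was at 2.08 ± 0.870 CPM (lowest 0.975, median 2.08, highest 3.51) and was called lower, and in PON it was at 2.48 ± 2.24 CPM (-2.52 ± 0.20 log2 units). CDH24 was called higher in CB alone among the 16 groups, at 59.9 ± 13.1 CPM (lowest 48.4, median 53.5, highest 82.9). CDH7 was high in CB (37.5 ± 7.52 CPM, lowest 21.9, median 38.3, highest 46.3) and in PON (35.1 ± 10.01 CPM, lowest 22.5, median 34.7, highest 49.5), where the difference was 1.91 ± 0.17 log2 units, and low in SN (3.82 ± 0.840 CPM; -1.48 ± 0.25).

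CDH6 was highest in the thalamus and CDH11 in the striatum. CDH6 (K-cadherin) was at 57.7 ± 10.7 CPM (lowest 40.8, median 59.4, highest 71.3) in THA and 46.5 ± 10.5 CPM (lowest 30.99, median 47.7, highest 57.6) in STR, against 3.61 ± 0.476 CPM (lowest 2.93, median 3.64, highest 4.15) in HIP. The 8 thalamus animals and the 8 hippocampus animals did not overlap, and the fitted differences were 2.15 ± 0.12 log2 units in THA and -2.10 ± 0.17 in HIP. CDH11, also known from bone-forming and mesenchymal cells, was called higher in STR (144 ± 20.1 CPM, lowest 116, median 141, highest 186) and THA (127 ± 27.5 CPM, lowest 75.6, median 134, highest 159) and lower in CB and PIT, the last at 24.02 ± 10.4 CPM.

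CDH13 (T-cadherin, the lipid-anchored member) was highest in PA, at 177 ± 45.4 CPM (lowest 106, median 187, highest 250.3), ahead of the cortex at 112 ± 21.01 CPM (lowest 86.8, median 106, highest 149). The difference was 3.04 ± 0.14 log2 units in PA, 1.51 ± 0.17 in HTHA, 1.203 ± 0.18 in MO and 1.18 ± 0.17 in THA. Without Rhesus 2 the difference in MO was 0.95 and no longer called. In HIP, next to PA in the medial temporal lobe, CDH13 was at 22.5 ± 5.77 CPM (lowest 11.3, median 22.7, highest 29.5) and not called; the 8 PA animals all lay above the 8 HIP animals.

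CDH23, a long cadherin of the hair cell tip link, was high in PON and CB and much lower in MO. It was at 151 ± 25.3 CPM (lowest 110.0, median 158, highest 191) in PON and 109 ± 28.2 CPM (lowest 66.2, median 109, highest 143) in CB, while the neighbouring MO had 17.7 ± 6.42 CPM (lowest 9.24, median 19.8, highest 24.5). Cerebellar granule and Purkinje cell markers summed to 73.1 to 106 CPM in PON and 2683 to 3562 in CBC. All PON and CB animals exceeded every animal of every other group. The fitted differences were 4.34 ± 0.11 log2 units in PON (edgeR adjusted p = 6.24e-64), 3.85 ± 0.11 in CB (8.06e-59) and 1.62 ± 0.14 in PIT, with further higher calls in OB and MO. It was called lower in the cortex, at 1.16 ± 0.162 CPM (lowest 0.908, median 1.15, highest 1.39), a difference of -3.20 ± 0.21 log2 units, and in GP, THA (-2.06 ± 0.22), HIP (-2.07 ± 0.20), PA (-1.98 ± 0.22) and STR (-1.73 ± 0.19). Its partner in the tip link, PCDH15, had another pattern. PCDH15 was called higher in HIP (17.8 ± 6.24 CPM, lowest 10.2, median 17.8, highest 30.2), HTHA (16.2 ± 5.04 CPM) and PA (15.1 ± 3.49) and lower in PIT (0.815 ± 0.437 CPM), and in PON and CB it was at 7.73 ± 2.06 and 4.44 ± 2.05 CPM with no call.

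CDHR1 was the only member with a fitted level over 2-fold above that of each other group, a rule that 11.5% of all genes met. In OB it was at 50.7 ± 32.5 CPM (lowest 13.5, median 41.1, highest 101); the 8 animals were wide apart, and the lowest of them was below the highest globus pallidus animal, 14.5 CPM. It exceeded the second group, GP at 9.50 ± 2.98 CPM, by 2.36 log2 units. CDH1 in OB lay just under that limit, 0.96 log2 units over PIT, and passed it without Rhesus 2, 3 or 7 (1.01, 1.03 and 1.08). Against the mean of the other 15 groups CDHR1 was higher in HTHA, OB (5.01 ± 0.14 log2 units), GP (2.49 ± 0.18), PON (2.22 ± 0.19), MO (2.14 ± 0.19), VTA (1.36 ± 0.21) and SN (1.304 ± 0.21). It was lowest in the cortex, at 0.199 ± 0.0207 CPM (lowest 0.170, median 0.200, highest 0.228), a difference of -3.47 ± 0.26 log2 units, and was called lower in CB, HIP (-2.82 ± 0.30), AMY (-2.82 ± 0.38), PA (-2.46 ± 0.36), THA (-1.62 ± 0.31) and STR (-1.33 ± 0.25). The amygdala libraries held 0 to 6 CDHR1 reads and the PA libraries 1 to 7.

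Among the delta-1 protocadherins, PCDH9 was higher in white matter and brainstem groups and PCDH1 in forebrain groups. PCDH9 was at 273 ± 87.4 CPM (lowest 131, median 296, highest 379) in CC (1.73 ± 0.10 log2 units) and also called higher in PON and MO. It was lower in OB, at 40.2 ± 12.4 CPM (-1.29 ± 0.13 log2 units), where oligodendrocyte markers summed to 3531 to 5939.8 CPM, and lowest in PIT at 4.26 ± 1.52 CPM (lowest 2.37, median 3.99, highest 6.83). The part of these markers in the PCDH9 levels was not tested. PCDH1 was called higher in PA (119 ± 41.9 CPM, lowest 68.9, median 123, highest 182), AMY (107 ± 58.6 CPM, lowest 28.5, median 134, highest 175) and the cortex (87.98 ± 23.4 CPM), and lower in GP, SN and PON. Its amygdala values were the most spread of these.

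The delta-2 protocadherins divided between forebrain and other patterns. PCDH8 (arcadlin, which neuronal activity is known to induce) was at 156 ± 15.5 CPM (lowest 130.3, median 159, highest 175) in the cortex, 149 ± 20.6 CPM (lowest 116, median 149, highest 174) in AMY, 119 ± 19.6 CPM in HIP and 112 ± 23.2 in STR. No animal of these groups was below 86.9 CPM, and no animal of PON, THA, CC or CB was above 9.38. The differences were 2.63 ± 0.13 log2 units in the cortex, 2.63 ± 0.13 in AMY, 2.25 ± 0.13 in HIP and 2.12 ± 0.14 in STR, and -3.25 ± 0.25 in PON, -2.23 ± 0.22 in THA and -1.55 ± 0.21 in MO. PCDH8 was also called in HTHA, where the library of Rhesus 6, the one high in cortical markers, had 131 CPM and the group median was 44.5. The difference there, 1.01 ± 0.16 log2 units, lay at the 2-fold limit and fell to 0.73, no longer called, without that library; it was also lost without Rhesus 2 (0.95).

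PCDH19, the X-linked member in which mutations cause an epilepsy of girls, had its highest region group means in the medial temporal lobe. It was at 176 ± 99.4 CPM (lowest 45.8, median 214, highest 285) in AMY, 134 ± 36.97 CPM (lowest 96.2, median 129.7, highest 209) in PA and 91.5 ± 34.2 CPM (lowest 36.8, median 102, highest 126) in HIP, and at 65.2 ± 23.9 CPM in HTHA. The fitted differences were 3.37 ± 0.15 log2 units in AMY, 3.07 ± 0.15 in PA, 2.41 ± 0.16 in HIP and 1.90 ± 0.17 in HTHA. PCDH19 was also called higher in the cortex, where the temporal pole was at 146 ± 34.9 CPM, and lower in GP, CC, PON, CB and PIT. PCDH10 (OL-protocadherin) was instead high in SN (247 ± 60.8 CPM, lowest 166, median 234, highest 319), where the difference was 1.36 ± 0.09 log2 units, and in STR (241 ± 33.5 CPM, lowest 169.8, median 247, highest 277) and OB, and low in CB and PIT (10.2 ± 4.02 CPM). PCDH17 was called higher in HTHA (54.6 ± 20.9 CPM, lowest 28.3, median 49.5, highest 85.8) and CC (52.2 ± 12.5 CPM, lowest 34.3, median 52.4, highest 70.3). PCDH18 was highest in OB (38.6 ± 7.85 CPM, lowest 27.3, median 39.8, highest 49.9) and HIP (33 ± 4.55 CPM, lowest 26.7, median 33.5, highest 39.1), called higher in SN as well, and lower in THA, PON, CB and STR, the last at 4.66 ± 1.27 CPM (lowest 3.23, median 4.72, highest 7.36), a difference of -1.45 ± 0.15 log2 units.

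PCDH12, a protocadherin of endothelial cells, was low everywhere. It was called in PIT alone, at 6.96 ± 1.63 CPM (lowest 3.999, median 7.15, highest 8.53), a difference of 1.36 ± 0.11 log2 units, and its other group means lay between 2.42 ± 1.33 and 5.52 ± 1.51 CPM. The 5 endothelial markers summed to 36.99 to 86.5 CPM in PIT, below their sum in VTA.

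**Figure D2:**
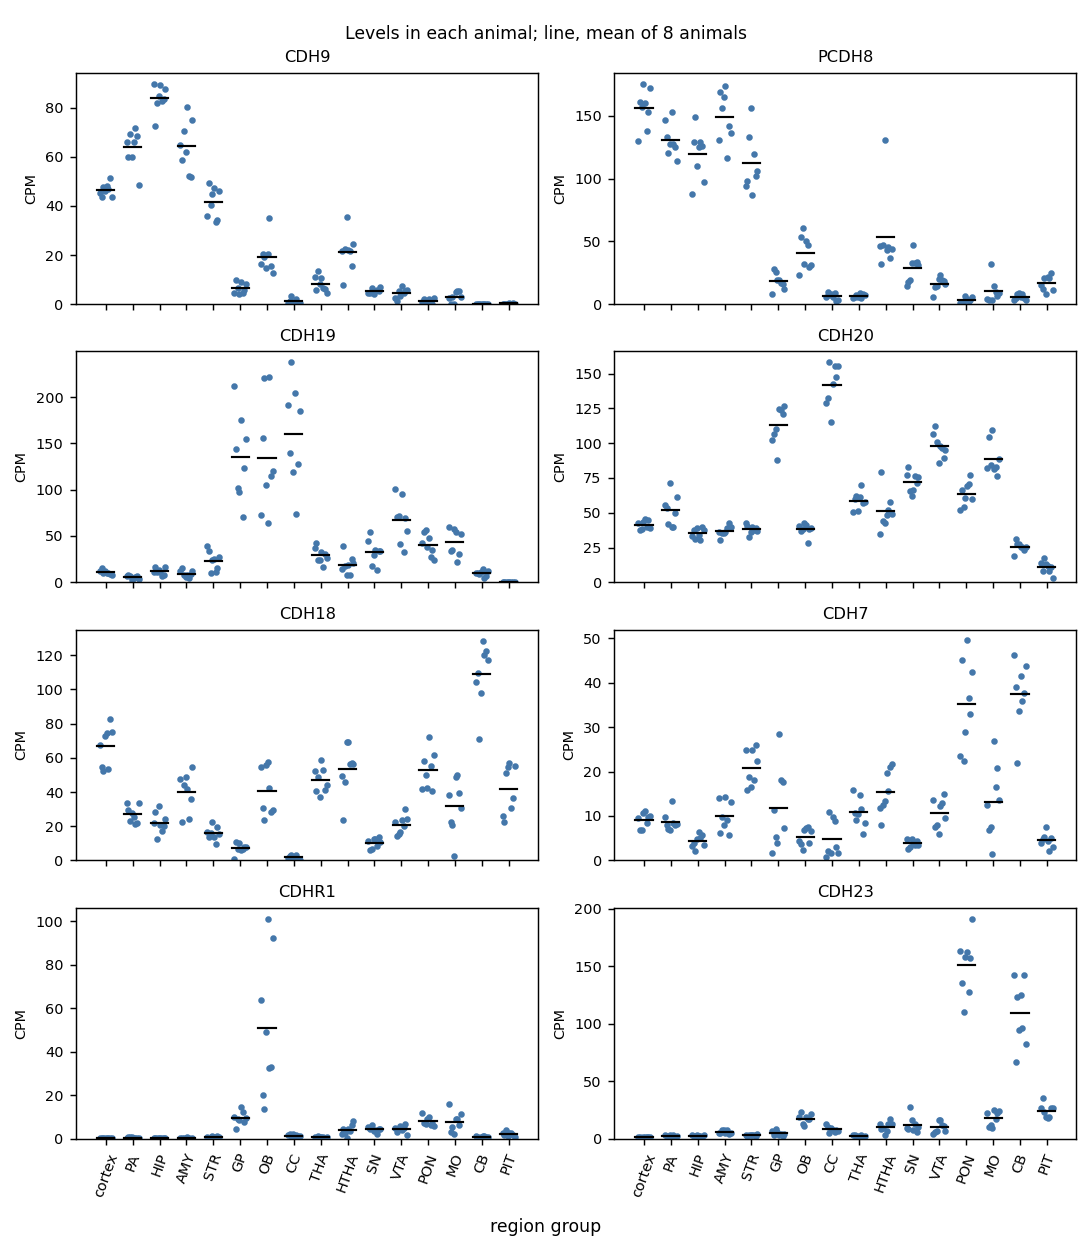
Level in CPM (vertical axes, linear, from 0) of 8 members in each of the 16 region groups (horizontal axes); each point is 1 of 8 animals and each line their mean. CDH9 and PCDH8 were high in the 5 groups from cortex to STR, CDH19 and CDH20 in GP and CC, CDH18 in CB with 109 ± 18.2 CPM, CDH7 in PON and CB, CDHR1 in OB with animals from 13.5 to 101 CPM, and CDH23 in PON and CB.

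At the level of single sub-regions, 4 members reached their highest mean in the dentate gyrus: CDH8 (276 ± 63.8 CPM), CDH9 (107 ± 15.4), PCDH15 (22.2 ± 10.4) and PCDH18 (44 ± 11.8). The corpus callosum was the highest sub-region for CDH19 (166 ± 55.6 CPM), CDH20 (148 ± 15.9), PCDH9 (284 ± 90.7) and PCDH17 (54.3 ± 13.2), and the cerebellum for CDH7, CDH18 and CDH22 (CBV, at 40.4 ± 4.35, 118 ± 12.9 and 87.1 ± 16.6 CPM) and for CDH24 (CBC, 59.02 ± 22.5). The caudate nucleus led for CDH4 (20.1 ± 5.69), CDH11 (148 ± 17.1) and PCDH10 (294 ± 67.7), and the putamen for CDH6 (69.6 ± 15.3). Cortical sub-regions led for CDH3 (anterior cingulate ACG, 9.41 ± 2.44 CPM), CDH10 and PCDH8 (ventromedial prefrontal vmPFC, 99.1 ± 23.2 and 216 ± 23.6), CDH12 (marginal gyrus, 41.3 ± 9.13) and PCDH1 (temporal pole TPG, 124 ± 38.1). Several of these firsts were ties within the spread: CDH4 was at 19.9 ± 4.996 CPM in PA, CDH13, whose highest mean was in PA at 176 ± 44.7, was at 175 ± 37 in the insula, CDH3 was at 9.26 ± 1.13 in TPG, and PCDH17 was at 54.1 ± 21.01 in HTHA.

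The remaining highest sub-regions were the region groups of 1 sub-region described above: OB for CDH1 and CDHR1, THA for CDH2, VTA for CDH5, PON for CDH23, AMY for PCDH19, and PIT for PCDH12 and for PCDH7, whose mean there was 0.181 ± 0.159 CPM. The lowest sub-region was PIT for 11 members: CDH2 (81.8 ± 14.8 CPM), CDH10 (1.32 ± 0.446), CDH11 (24.5 ± 10.5), CDH13 (2.02 ± 1.24), CDH20 (10.96 ± 4.35), CDH24 (7.05 ± 2.43), PCDH9 (4.35 ± 1.57), PCDH10 (10.4 ± 4.15), PCDH19 (1.36 ± 1.003), CDH19 (0.186 ± 0.145) and PCDH15 (0.832 ± 0.446). A cerebellar sub-region was lowest for CDH3 (0.293 ± 0.278 CPM in CBV), CDH4 (1.72 ± 0.540), PCDH12 (2.12 ± 1.21), CDH8 (1.40 ± 0.785 in CBC), CDH9 (0.0385 ± 0.0420), PCDH17 (8.11 ± 2.65) and PCDH18 (2.28 ± 0.676), and PCDH7 had no read in any CBV library. The corpus callosum was lowest for CDH12 (0.432 ± 0.204 CPM), CDH18 (1.92 ± 1.15) and CDH22 (1.89 ± 1.13), and the dentate gyrus for CDH5 (5.50 ± 1.22), CDH6 (2.76 ± 0.664) and CDH7 (3.69 ± 1.29). An occipital sub-region was lowest for CDH1 (0.160 ± 0.133 CPM in aSOG), CDH23 (0.719 ± 0.347 in IOG) and CDHR1 (0.0119 ± 0.0337 in aSOG), PON for PCDH8 (3.19 ± 1.95) and SN for PCDH1 (18.4 ± 5.48). For these highest and lowest sub-regions the shares over all genes were not counted. The counts are thus not shown to be particular to the members.

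Within the cortex, the question was which members mark its 31 sub-regions. Of 28 members that passed the filter there, 15 differed with a fitted span over 2-fold between the highest and lowest sub-region (edgeR quasi-likelihood F test, animal as a block, adjusted p under 0.05), against 24% of all genes. The widest spans were those of CDH1 (3.12 log2 units), PCDH19 (3.11), PCDH17 (2.49), CDH4 (2.44) and CDH19 (2.27). The others were CDH9, PCDH8, CDH3, PCDH15, CDH13, PCDH1, CDH6, CDH8, CDH23 and CDH10, with spans of 1.98 to 1.10. The other 13 had an edgeR adjusted p of at most 0.023 but spans within 2-fold.

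By mean CPM, 7 of the 15 peaked in the temporal pole (CDH1, CDH4, CDH9, CDH23, PCDH1, PCDH15 and PCDH19), 2 in vmPFC (CDH10 and PCDH8) and 2 in ACG (CDH3 and PCDH17), and 11 were lowest in a sub-region of the occipital lobe. The matching shares over all genes were not counted, so these counts are not shown to be particular to the members. By the fitted values the peaks of CDH3 and PCDH1 moved to TPG and vmPFC, each within 0.0253 log2 units of the next sub-region. Their use also moved 2 of the lowest sub-regions out of the occipital lobe. The lowest was then the inferior postcentral gyrus (IPCG) for CDH8 and the annectant gyri (ATG) for PCDH1. These lay 0.0045 and 0.0029 log2 units below the next sub-region. PCDH19 was at 146 ± 34.9 CPM (lowest 101, median 141, highest 201) in TPG and 122 ± 31.5 CPM (lowest 81.05, median 123, highest 169.8) in the insula (INS), against 16.6 ± 4.97 CPM (lowest 9.53, median 16.1, highest 23.3) in the posterior superior occipital gyrus (pSOG). The 8 animals of TPG and the 8 of pSOG did not overlap. CDH4 was at 17.5 ± 5.19 CPM (lowest 10.9, median 17.4, highest 28.05) in TPG and 3.32 ± 1.76 CPM (lowest 1.48, median 3.10, highest 6.71) in pSOG, CDH9 at 69.9 ± 6.46 and 17.9 ± 2.14 CPM, and CDH1 at 1.45 ± 0.321 and 0.162 ± 0.0895 CPM. PCDH8 fell from 216 ± 23.6 CPM (lowest 161, median 225, highest 234) in vmPFC to 63.9 ± 21.98 CPM (lowest 44.97, median 53.2, highest 107) in pSOG, and PCDH17 from 46.9 ± 18.3 CPM (lowest 14.8, median 53.9, highest 66.1) in ACG to 8.46 ± 4.71 CPM (lowest 3.94, median 5.80, highest 16.3) in the inferior occipital gyrus (IOG); for PCDH17 the lowest ACG animal was within the IOG range.

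CDH19 and CDH6 ran the other way. CDH19 was highest in the superior precentral gyrus (SPrCG), at 17.2 ± 6.47 CPM (lowest 10.9, median 15, highest 28.5), and lowest in TPG at 3.50 ± 1.05 CPM (lowest 2.33, median 3.17, highest 5.26), and the oligodendrocyte markers there summed to 3856 to 7529.7 and 483 to 1065 CPM; their part in the difference was not tested. CDH6 was highest in the inferior precentral gyrus (IPrCG), at 21.6 ± 3.23 CPM (lowest 16.9, median 21.4, highest 26.9), and lowest in TPG at 9.25 ± 1.78 CPM (lowest 7.12, median 9.14, highest 13.2).

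**Figure D3:**
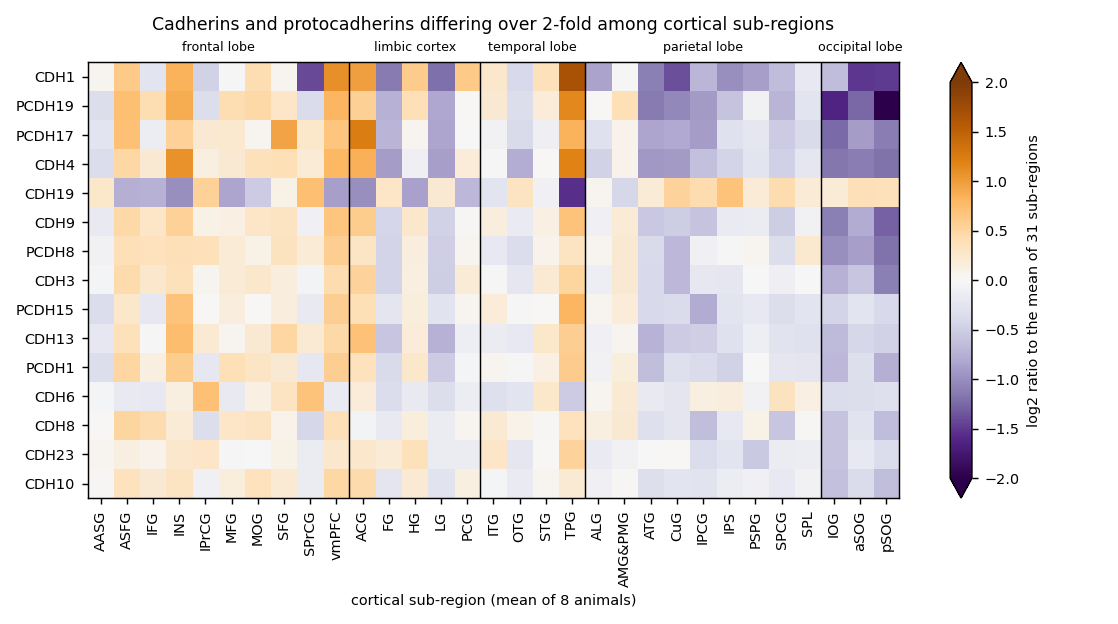
Heat map of the log2 ratio of each sub-region's mean CPM (8 animals) to the mean of the 31 cortical sub-regions, for the 15 members that differed with a span over 2-fold; columns are grouped by lobe. The occipital columns at the right were low for most members, while TPG was high for CDH1 (1.45 ± 0.321 CPM) and PCDH19 (146 ± 34.9 CPM) and low for CDH19 (3.50 ± 1.05 CPM).

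Summed into 5 lobes, the contrast was mainly occipital. Against the mean of the other 4 lobes, at a fold over 1.5 and an adjusted p under 0.05, 8 of 29 members were lower and none higher in the occipital lobe, where 8.44% and 3.75% of all genes were. In the frontal lobe 5 were higher and none lower (4.07% and 1.53%), in the temporal lobe 2 were higher and none lower (2.03% and 0.761%), in the parietal lobe none was higher and 1 lower (0.360% and 0.681%), and in the limbic cortex none was called in either direction (1.60% and 0.223%). The largest occipital differences were those of CDHR1 (-2.002 ± 0.35 log2 units), PCDH19 (-1.63 ± 0.11) and CDH1 (-1.22 ± 0.19). The other 5 were CDH4, PCDH17, CDH9, PCDH8 and CDH3, from -1.21 ± 0.08 to -0.83 ± 0.06. PCDH19 was at 21.6 ± 3.49 CPM (lowest 17.7, median 20.9, highest 26.8) in the occipital and 86.9 ± 16.1 CPM (lowest 66.6, median 85.96, highest 107) in the frontal lobe, and no occipital animal reached the lowest frontal animal.

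In the frontal lobe CDHR1 (1.09 ± 0.18 log2 units), PCDH19 (0.81 ± 0.09) and CDH4 (0.79 ± 0.06) were followed by PCDH17 and PCDH8. CDHR1 was at 0.260 ± 0.0436 CPM there and 0.0450 ± 0.0485 in the occipital lobe, so its folds are between low levels. In the temporal lobe the higher members were CDH1 (1.01 ± 0.14 log2 units) and PCDH19 (0.80 ± 0.09), and the lower member of the parietal lobe was CDH1 (-0.73 ± 0.14; without the animal as a block, -0.73 with adjusted p = 0.333 by edgeR). CDH1 was at 0.706 ± 0.192 CPM (lowest 0.455, median 0.703, highest 1.08) in the temporal and 0.279 ± 0.121 CPM (lowest 0.0725, median 0.283, highest 0.485) in the parietal lobe.

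In the hippocampus, 1 of 28 members tested set 1 field over 2-fold apart from both others, where 2.40% of all genes did. CDH19 was at 6.12 ± 2.26 CPM (lowest 2.88, median 5.83, highest 9.32) in DG, 12.8 ± 3.64 CPM (lowest 9.47, median 11.4, highest 20.2) in CA1 and 14.9 ± 5.47 CPM (lowest 6.59, median 14.4, highest 21.8) in CA3. The DG animals lay below every CA1 animal and overlapped with CA3. The differences were -1.07 log2 units against CA1 and -1.25 against CA3, and without Rhesus 3 or Rhesus 8 the call was lost, which left 0 members. Oligodendrocyte markers summed to 1528 to 3107 CPM in DG, 3401 to 8734 in CA1 and 4049 to 9645 in CA3, and their part was not tested. PCDH10 lay just under the limit and passed it without Rhesus 2, 4 or 7, or without the animal term, which made 2 members. It was at 34.5 ± 9.09 CPM (lowest 19.9, median 37.6, highest 46.8) in DG, 69.6 ± 11.6 CPM in CA1 and 69.6 ± 19.8 in CA3.

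The striatal nuclei differed in more members: 10 of 28, against 5.85% of all genes (F test with the animal as a block, 1 nucleus over 2-fold above or below both others). That fit kept the accumbens library of Rhesus 10 and the putamen library of Rhesus 3, both named above for their cortical markers. The count was 9 without Rhesus 3 and 8 without Rhesus 10, and the part of the cortical markers in the calls was not tested. CDH6 and CDH7 set the accumbens nucleus apart. CDH6 was at 9.98 ± 3.10 CPM (lowest 4.91, median 9.89, highest 15.03) in ACb, 54.7 ± 16.96 CPM (lowest 29.3, median 59.4, highest 78.3) in CN and 69.6 ± 15.3 CPM (lowest 46.5, median 70.5, highest 93.9) in PUT, and every ACb animal lay below every CN and PUT animal. The ACb difference was -2.43 log2 units against CN (edgeR adjusted p = 7.63e-09) and -2.83 against PUT. CDH7 was at 10.1 ± 4.02 CPM (lowest 5.51, median 8.91, highest 16.7) in ACb, 24.5 ± 4.19 CPM in CN and 25.5 ± 5.71 in PUT, again with no ACb animal above the lowest CN or PUT animal.

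The putamen was the low nucleus for CDH1, CDH4, CDH9, CDH12, CDH18, CDH23 and PCDH19. PCDH19 was at 15.4 ± 7.38 CPM (lowest 4.01, median 17.5, highest 23.8) in ACb, 21.4 ± 9.66 CPM (lowest 8.17, median 20.8, highest 35.8) in CN and 2.98 ± 1.91 CPM (lowest 1.12, median 2.43, highest 6.59) in PUT; the CN and PUT animals did not overlap, and CN exceeded PUT by 2.85 log2 units. CDH9 fell from 64.3 ± 10.3 CPM (lowest 46.97, median 64.5, highest 81.8) in ACb through 35.5 ± 11.1 CPM (lowest 20.9, median 37, highest 48.9) in CN to 17.03 ± 5.47 CPM (lowest 9.43, median 17.4, highest 25.6) in PUT, and the ACb and PUT animals did not overlap. CDH4 was at 20.1 ± 5.69 CPM in CN and 8.01 ± 2.72 in PUT, and CDH18 at 18.4 ± 3.93 and 8.15 ± 4.07. The calls of CDH1 and CDH12 were lost without the animal term, and without Rhesus 3 or 11 (CDH1) or Rhesus 7, 8 or 11 (CDH12); that of CDH4 without Rhesus 10, that of CDH9 without Rhesus 6, and that of CDH23 without Rhesus 3, 4 or 10, with spans over the nuclei of 1.17 to 1.94 log2 units in those fits.

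CDH19 was the 1 member over 2-fold higher in the putamen than in both other nuclei. It was at 40.5 ± 19.1 CPM (lowest 15.3, median 45.7, highest 66.5) in PUT, 15.3 ± 6.70 CPM (lowest 8.86, median 14.5, highest 27.7) in CN and 11.6 ± 5.62 CPM (lowest 4.72, median 10.9, highest 19.5) in ACb, and the oligodendrocyte markers summed to 12496 to 21249, 3549 to 8011 and 2256 to 7234 CPM in the same order. The part of these markers in the striatal calls, higher or lower, was not tested.

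The cerebellum held 1 difference between its cortex and its vermis among 26 members tested, beside 0.225% of all genes. CDH8 was at 23.2 ± 8.81 CPM (lowest 8.54, median 25.4, highest 35.7) in CBV and 1.40 ± 0.785 CPM (lowest 0.432, median 1.46, highest 2.57) in CBC. Every vermis animal was above every cortex animal, and the vermis exceeded the cortex by 4.05 log2 units (edgeR adjusted p = 4.59e-05). The 4 cerebellar granule and Purkinje cell markers in the table summed to 2683 to 3562 CPM in CBC and 2818 to 3438 in CBV.

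**Figure D4:**
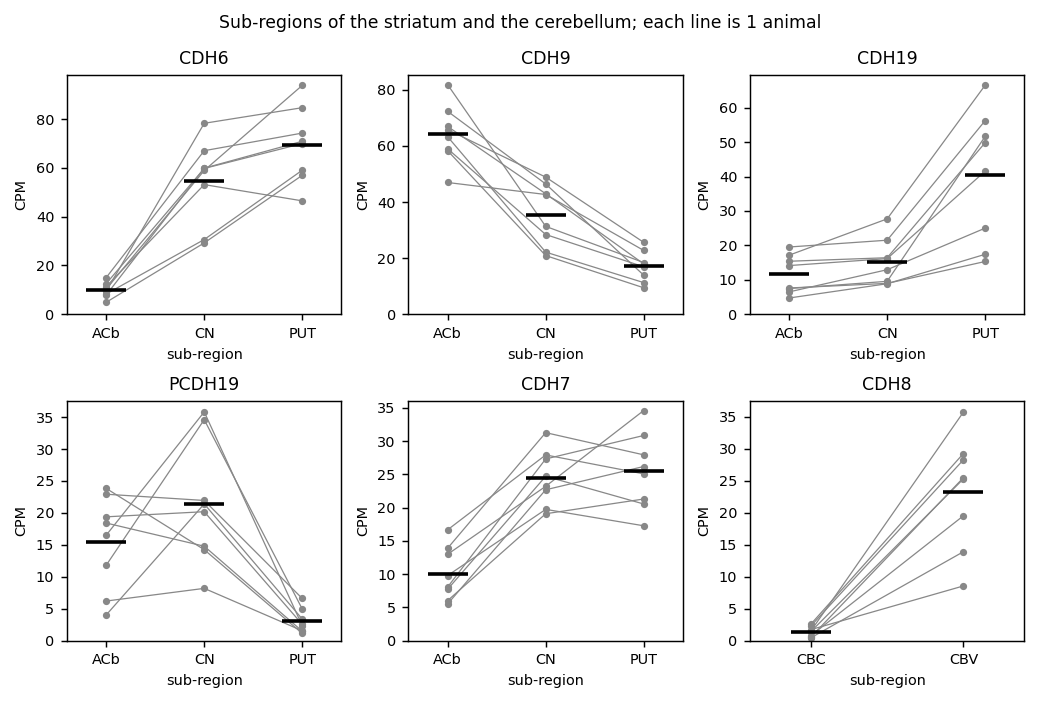
Level in CPM (vertical axes, linear, from 0) of 5 members in the 3 striatal nuclei and of CDH8 in the 2 cerebellar sub-regions; each grey line joins the values of 1 of 8 animals and each black bar is their mean. CDH6 and CDH7 were lowest in ACb, CDH9 and PCDH19 in PUT, CDH19 was highest in PUT (40.5 ± 19.1 CPM), and CDH8 was higher in CBV (23.2 ± 8.81) than in CBC (1.40 ± 0.785) in each animal.

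In the amygdala the animals were far apart for several members, a pattern chosen for description after its values were seen. For 9 of 29 members (CDH8, CDH9, CDH13, CDH18, PCDH1, PCDH9, PCDH10, PCDH17 and PCDH19) the 3 lowest amygdala values were those of Rhesus 3, 8 and 10, which also held for 15.1% of all 16829 genes. PCDH19 was at 45.1, 58.5 and 80.5 CPM in these animals, and at 239 in Rhesus 2, 254 in Rhesus 4, 182 in Rhesus 6, 280.3 in Rhesus 7 and 248 in Rhesus 11. PCDH1 was at 28.1, 35.7 and 52.5 CPM in Rhesus 3, 8 and 10, and PCDH17 at 14.05, 20.5 and 17.97. These 3 animals include both sexes and both age stages. Their sums of cortical excitatory neuron markers in the amygdala, 1445, 1372 and 1347 CPM, lay inside the range of the other 5 animals, 1115 to 1577. What set these 3 animals apart, including the part of the amygdala sampled, was not tested.

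In the median member, the animal accounted for a smaller part of the variation than the sub-region. Over the 248 cortical libraries the sub-region took a median of 44.3% of a member's variance in log2 CPM and the animal 19.3%, against 18.9% and 27.4% over all 15981 genes. CDH9 had the smallest animal share, 1.68%, and the largest sub-region share, 81.97%. Over all libraries the medians were 84.9% and 2.55% for the members, against 58.6% and 9.99% over all 16829 genes.

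PCDH12 and CDH5, the 2 endothelial members, had the largest animal shares among the members. PCDH12 had 76.4% of its cortical variance between animals, a share that 176 of 15981 genes exceeded, and CDH5 had 50.9%. Averaged over the 51 sub-regions, PCDH12 was at 4.64 CPM in Rhesus 7, 4.60 in Rhesus 11, 4.48 in Rhesus 4 and 3.28 in Rhesus 10. The other 4 animals were between 1.74 and 2.32 CPM. Rhesus 4, 7 and 11 were each among the upper 4 animals in at least 49 of the 51 sub-regions and Rhesus 10 in 39. For CDH5 Rhesus 11 was among the upper 4 in 51 of 51, at 15.8 CPM against 8.72 to 11.6 in the other 7. Of the 5 endothelial markers, VWF had 63.2% of its cortical variance between animals, PECAM1 43.9%, FLT1 42.7%, ESAM 20.8% and TIE1 18.3%; their part in the order of the animals was not tested.

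With age stage, no member passed the threshold in any region group. Over 450 member and group pairs, none was called between the 4 mid-aged and 4 young animals (edgeR quasi-likelihood test with sex as covariate, adjusted p under 0.1 and a fold over 2), where 0.0164% of the pairs of all genes were. At an unadjusted p under 0.05 there were 44 member pairs (9.78%, all genes 5.73%), and in 21 (4.67%, all genes 3.86%) the values of the 2 age stages did not overlap. DESeq2 called 5 member pairs and 0.330% of the pairs of all genes: CDH19 in STR (1.02 log2 units), CDH7 in CC (-2.32), CDH24 in MO (-1.18), PCDH8 in MO (-1.73) and CDH8 in PIT (-1.23). With edgeR 3 member pairs, and 0.377% of the pairs of all genes, were called without Rhesus 7 (PCDH1 in PA, 1.02, PCDH1 in THA, 1.199, and PCDH19 in THA, 1.19). Without Rhesus 10, 1 member pair (CDH7 in CC, -2.64) and 0.00447% of the pairs of all genes were called. The smallest adjusted p were those of CDH20, PCDH1 and CDH12 in PA. CDH20 was at 60.4 ± 8.14 CPM in mid-aged and 42.9 ± 4.93 in young animals, with no overlap (log2 difference 0.47 ± 0.11, SE, edgeR adjusted p = 0.232). PCDH1 differed by 0.75 ± 0.20 and CDH12 by 0.76 ± 0.21 log2 units, both with an edgeR adjusted p of 0.248 and with overlapping animals.

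Sex gave the same count. None of the 450 pairs was called between 4 females and 4 males with age stage as covariate, beside 0.105% of the pairs of all genes; 24 member pairs had an unadjusted p under 0.05 (5.33%, all genes 3.54%) and 6 did not overlap (1.33%, all genes 2.02%). DESeq2 called 2, CDH12 and PCDH17 in PIT, beside 0.411% of the pairs of all genes. The smallest edgeR adjusted p, 0.218, was shared by 3 members in PIT. PCDH17 was at 15.7 ± 8.42 CPM in females and 4.65 ± 2.85 in males, a log2 difference of 1.65 ± 0.53. CDH12 differed by 1.13 ± 0.26 and PCDH10 by 0.76 ± 0.28 log2 units in the same direction, and the animals of both sexes overlapped for all 3. Without Rhesus 7, a male, edgeR called 0.908% of the pairs of all genes and, among the members, CDH12 (1.16), PCDH17 (2.37) and PCDH19 (2.03) in PIT.

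Whether an age difference varied between region groups was tested as an interaction within animals. It was called for 1 of 29 members, CDH7 (F = 3.39, edgeR adjusted p = 0.0177), where 1.65% of all genes were called, and for no member with sex (all genes, 0.689%). In CC CDH7 was at 10.9, 9.71, 8.86 and 3.04 CPM in the young Rhesus 4, 7, 8 and 10, and at 0.795, 2.16, 1.66 and 1.77 in the mid-aged Rhesus 2, 3, 6 and 11. The young animals were all above the mid-aged ones there, and mid-aged minus young was -2.31 ± 0.45 log2 units (edgeR adjusted p = 0.649). In CB the difference was 0.26 ± 0.19 and the animals overlapped. The interaction was lost when Rhesus 2, 6, 7 or 8 was left out, where CDH7 had an edgeR adjusted p of 0.0872 to 0.186; without Rhesus 3 it was called for CDH6 and CDH24 as well, and without Rhesus 11 for PCDH8.

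**Figure D5:**
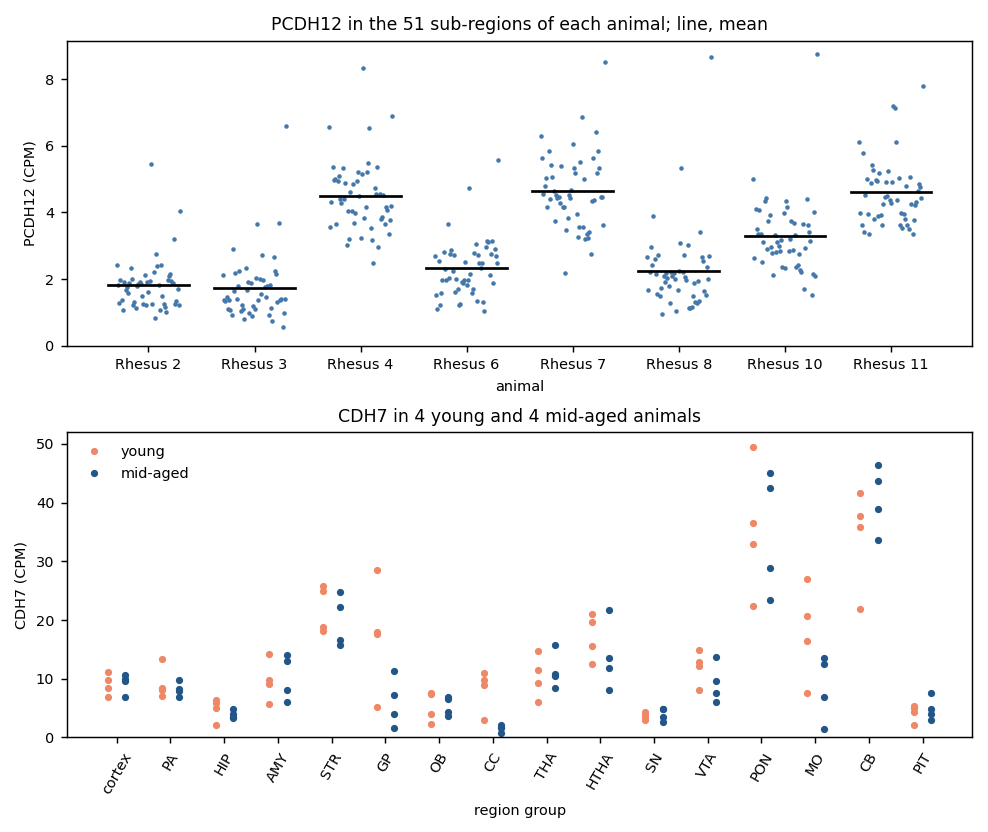
Upper panel, PCDH12 in CPM (linear axis from 0) in each of 51 sub-regions (points) of each of 8 animals, with the mean of the 51 as a line; lower panel, CDH7 in CPM in 16 region groups, each point 1 of 4 young or 4 mid-aged animals. PCDH12 means were highest in Rhesus 4, 7 and 11, and the CDH7 values of the young animals lay above those of the mid-aged ones in CC, between 3.04 and 10.9 CPM.

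Other genes of cadherin adhesion were tested in the same fit. Catenins and related tail proteins (11 of 12 listed genes tested) were higher in 17 and lower in 17 of 176 gene and group pairs, 9.66% each, beside 9.27% and 7.94% for all genes. Other members of the cadherin superfamily (22 of 27) were higher in 56 and lower in 55 of 352 pairs, or 15.9% and 15.6%. Nectins, the immunoglobulin-type partners of cadherins at junctions (3 of 3), were higher in 7 and lower in 6 of 48 pairs, and the proteases that cleave cadherins (3 of 3) higher in 3 and lower in 1. The largest higher differences on the list were in CB, for CDH15 (M-cadherin), at 128 ± 47.6 CPM and 9.08 ± 0.11 log2 units, and for FAT2, a giant cadherin of cerebellar granule cells, at 798 ± 161 CPM and 8.37 ± 0.09. The largest lower differences were in PIT, for CDHR3 with 0 to 1 reads per library and for the desmosomal cadherin DSC1 with no read in any PIT library, so neither has a fold that the counts can bound well.

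Members were compared by Pearson's r of their mean log2 CPM over the 51 sub-regions, as a description of sub-regions that share animals and depth. The 435 pairs of members include those of PCDH7, which had few reads. Over them r had a median of 0.12 and ran from -0.83 to 0.91, and 9 pairs exceeded 0.8, a share not counted over all genes. In falling order these were CDH9 and PCDH8 (r = 0.91), CDH13 and PCDH19 (0.86), CDH8 and CDH9 (0.83), CDH12 and PCDH8 (0.83), CDH9 and PCDH19 (0.83), CDH10 and PCDH19 (0.83), CDH10 and CDH13 (0.81), CDH19 and CDH20 (0.80), and CDH2 and CDH13 (0.80). In the same order, r over the 31 cortical sub-regions alone was 0.92, 0.87, 0.82, 0.60, 0.96, 0.92, 0.85, 0.30 and -0.25. CDH23 was the most opposed member over the 51 sub-regions for 12 of the others, at -0.83 with CDH9. Within the cortex CDH23 and CDH9 had r = 0.71, so the opposition did not hold among cortical sub-regions. CDH9 was called higher and CDH23 lower in the cortex, PA, HIP and STR. In PON, MO, CB and PIT the calls were the reverse, and in OB both were higher. The 2 tip link genes CDH23 and PCDH15 had r = 0.05 over the 51 sub-regions and 0.66 within the cortex.

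Gene order in the RefSeq annotation of the macaque places some members next to each other with no protein-coding gene between them. CDH10 and CDH9 had r = 0.72 over the 51 sub-regions and CDH8 and CDH11 0.71, whereas CDH9 and CDH6 had 0.05 and CDH3 and CDH1 0.11. Over the 31 cortical sub-regions alone the same pairs had r = 0.95, 0.62, 0.24 and 0.79.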

How the data were processed

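Total RNA from the dissected sub-regions was depleted of ribosomal RNA and sequenced from directional libraries. Per the labels and the methods, reads were checked with FastQC 0.11.4, poor samples trimmed with Trim Galore 0.4.4, and reads aligned to Mmul 8.0.1 with HISAT2 2.0.5. The deposited values are raw counts per gene that the authors made with HTSeq 0.6.1 and the Ensembl 91 annotation, with no normalization. How HTSeq treated strand and overlapping genes is not given in the sources used here; reads of overlapping genes could have been lost or shared. The table held no fold change or p-value columns and all 408 columns were used. Total counts per library set the precision: the median library held 10698602. Symbols came from the gene name table given for the macaque; 17572 of 30807 gene IDs had one. No genome or sequence table was used, and chromatin accessibility samples and the transcript assembly of the study were not used here.

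Sub-regions were summed per animal into 16 region groups and 5 cortical lobes. Counts were fitted with edgeR 4.0.16 (limma 3.58.1, R 4.3.3) by the quasi-likelihood test with TMM and filterByExpr, across all genes, with Benjamini-Hochberg adjustment over all genes of a comparison (age and sex: within a region group). Region, lobe and sub-region fits had the animal as a block, which the study used for sub-regions within STR, HIP and CB; age was split at 5 years. TMM was computed separately for summed and single libraries, so CPM of a region group of 1 sub-region differ slightly from that sub-region's. log2 CPM used a prior count of 1. Alternatives were DESeq2 1.42.0, DESeq2 size factors, the study's detection rule (a count above 1 in at least 3 libraries), no animal block, 1 sub-region per region group, no covariate, no hypothalamus library of Rhesus 6, and leaving out each animal. Simulated counts, drawn without an animal effect, were used to check some of the fits. These were a region group against the rest, the hippocampal fields, age stage in STR, and region group by age stage. The other comparisons were not simulated.

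Libraries with the same animal number came from the same animal by the labels, so the fits were paired by animal. The deviations from group means correlated with a median r of 0.34 over 960 same-animal pairs and -0.05 over 6720 others, and 126 of 128 summed libraries lay closest to their own animal. Where only the block changed, 195 of the 196 member calls between region groups were shared.

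The members and all lists were chosen with earlier results of these data known. All members are named. Values in full were given for the members called, at most the 3 largest changes per direction in a comparison, for the 3 smallest adjusted p with age and with sex where fewer were called, for the 2 largest changes per direction on the list of related genes, and for each member's highest and lowest sub-region. Gene neighbours were read from the RefSeq table of assembly T2T-MMU8v2.0, used for order only.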

Additional observations from a re-analysis of the deposited data

Results flagged for a closer look

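Among 58 sets of 8 animals (each member's highest and lowest sub-region), 4 held an animal whose gap to the nearest other exceeded Dixon's critical value for the share of the range; chance gives about 1 in 20. CDH24 in the cerebellar cortex was at 110.3 CPM in Rhesus 4 and at 42.8 to 66.9 in the other 7 animals. PCDH17 in the cerebellar cortex was lowest in the same animal, at 2.25 CPM against 7.14 to 10.4. PCDH8 in vmPFC was at 161 CPM in Rhesus 2 and 209 to 234 in the others. CDHR1 in aSOG was at 0.0953 CPM in Rhesus 8, which is 1 read, and at 0 in the other 7; with a single read in the set the gap takes up the whole range whatever animal holds it, so this value says nothing of an animal that stands apart.

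The age difference of CDH7 differed between region groups (F = 3.39, edgeR adjusted p = 0.0177, tested as an interaction within animals), with F between 2.49 and 3.79 when 1 animal was left out. It was no longer called without Rhesus 2, 6, 7 or 8 (edgeR adjusted p = 0.0872 to 0.186), and 1 of 29 members called stands beside 1.65% of all genes.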

How the results depend on the processing

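Of 142 recomputed counts of members, 120 stayed within 1.5 times the value given and 22, in the results that follow, did not. Under the study's detection rule and without Rhesus 2, 3 or 7, members set apart in 1 region group rose from 1 to 2, the second being CDH1 in OB, which lay at the 2-fold limit; the range over animals left out was 1 to 2. Without the replicate block 2 members differed among hippocampal fields in place of 1, the second being PCDH10, and 0 to 2 did with 1 animal left out. Members differing with age stage went from 0 to 5 with the DESeq2 test (CDH19 in STR, CDH7 in CC, CDH24 and PCDH8 in MO, CDH8 in PIT), to 1 under the detection rule (CDH7 in CC), and to 0 to 3 with 1 animal left out. Of the pairs of all genes, 0.330% were called with DESeq2 and 0.191% under the detection rule. Without Rhesus 7, which gave the 3, the share was 0.377%. With sex the members went from 0 to 2 with the DESeq2 test (CDH12 and PCDH17 in PIT) and to 0 to 3 with 1 animal left out. The shares of the pairs of all genes were 0.411% with DESeq2 and 0.908% without Rhesus 7, which gave the 3. The age interaction, for which leaving out animals was added after seeing the data, gave 0 to 3 members; the others besides CDH7 were CDH6 and CDH24 without Rhesus 3 and PCDH8 without Rhesus 11.

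With 1 animal left out, 98 to 106 member and group pairs were higher and 88 to 94 lower, 6 to 8 member and lobe pairs were higher and 9 to 11 lower, 8 to 11 members differed in the striatum and 1 in the cerebellum. Of the 196 calls between region groups, 185 to 195 were shared with each other setting (195 without the replicate block), and no call took the opposite direction. The calls lost when the animal in brackets was left out were CDH1 in AMY (Rhesus 3 or 8), CDH3 in MO (Rhesus 4), CDH3 in OB (Rhesus 10), CDH4 in HTHA (Rhesus 2 or 8), CDH4 in THA (Rhesus 3, 6, 7, 8 or 10), CDH6 in MO (Rhesus 2 or 8), CDH7 in CC (Rhesus 2, 6 or 11), CDH7 in PIT (Rhesus 8), CDH10 in OB (Rhesus 8), CDH13 in MO (Rhesus 2), CDH19 in MO (Rhesus 6), CDH20 in VTA (Rhesus 2, 3 or 8), CDH23 in GP (Rhesus 3, 7, 8, 10 or 11), CDH23 in OB (Rhesus 3), CDH23 in MO (Rhesus 7, 10 or 11), CDHR1 in HTHA (Rhesus 11), PCDH1 in PON (Rhesus 2, 4, 6 or 7), PCDH8 in HTHA (Rhesus 2 or 6), PCDH9 in MO (Rhesus 2, 8 or 10), PCDH9 in PON (Rhesus 3), PCDH10 in OB (Rhesus 2, 6 or 8), PCDH15 in PA (Rhesus 2), PCDH18 in SN (Rhesus 2 or 11) and PCDH18 in THA (Rhesus 7, 10 or 11); the differences were then 0.85 to 1.00 log2 units in size except for CDH3 in MO and PCDH8 in HTHA (0.64 and 0.74 at their lowest). Without the hypothalamus library of Rhesus 6 the calls lost were CDH4 in THA, PCDH1 in PON, PCDH8 in HTHA, PCDH9 in MO and CDH20 in VTA. Of 1578 recomputed values of named members, 1548 kept their direction and side of the threshold, 25 fell below it, 5 passed it and 0 reversed; the cause of these changes was not tested. Cortical sub-regions and the sex interaction were not run with animals left out. Depth limits the members with few reads: PCDH7 everywhere, CDH9 in CB and PIT, CDH19 in PIT, CDH12 in CC, CDH1 in GP and CC, and CDHR1 in PA and AMY, where a count of 0 allows up to 3 reads, counting error only.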
